A study of Proteus anguinus with 14 samples.

Results

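Liver and lung were compared directly with each other in the olm (Proteus anguinus), a blind cave salamander that keeps its gills for life and also carries simple, sac-like lungs. The comparison took 6 of the 14 samples in the series, which were the liver and the lung of each of the animals p4, p5 and p6, so 3 samples stood against 3 and each lung could be set against the liver with the same p number. All 3 animals were wild olms that had been flushed from caves in Dalmatia, served as non-infected controls of an infection study, were housed singly in the dark, and received no treatment whose effect is compared here. Age, sex and genotype are not stated in the sources used here. By its title, each sample is 1 organ sample from 1 animal. The reference transcripts to which all reads were aligned had been assembled from animal p4 alone. The organ of each sample was taken from its title, because a separate tissue field in the labels exchanges liver and lung. The table holds 18924 assembled genes with values in TPM, a transcript's share of its sample's RNA after correction for transcript length, scaled to a sum of 1000000 in every sample. TPM were divided by a scaling divisor per sample, 0.774 to 1.14 in these samples, that was obtained as the median ratio over the 14038 genes above 0 in all 6. The result is called normalised TPM. Of the genes, 12187 were tested, those that had 1 TPM or more in 2 or more of the 6 samples. Gene symbols are names of best matching orthologues in other species, and a symbol therefore does not prove that the olm gene has the same role.

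The liver makes most proteins of blood plasma, including albumin, clotting factors and complement, breaks down amino acids with the urea cycle as the outlet for nitrogen, makes bile acids and glucose, and stores iron in ferritin. The lung is an air sac in which an epithelium that secretes surfactant lies over a dense net of blood vessels, supported by smooth muscle and connective tissue. Red blood cells of amphibians keep their nucleus and go on making messenger RNA, and their thrombocytes are nucleated cells as well, so that blood inside an organ adds its own transcripts to the sample.

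The defining markers lay where the titles put them. ALB, albumin, stood at 111304, 59279 and 52147 normalised TPM in the livers of p4, p5 and p6, and at 209.9, 12074 and 8994 in the lungs with the same p numbers. SFTPB, surfactant protein B, stood at 0.244, 1.92 and 0 in the livers and at 20, 28.1 and 26.7 in the lungs. NKX2-1, the transcription factor that specifies lung epithelium, stood at 0, 0.885 and 0 in the livers and 7.39, 6.19 and 3.95 in the lungs. All 3 livers thus held far more ALB, and all 3 lungs more SFTPB and NKX2-1, yet ALB was much more abundant in lung p5 and lung p6 than in lung p4. Among the 27 lung epithelium markers listed, 10 occurred in the table and 5 passed the filter. Of the rest, ABCA3 and PGC stayed under 1 in every sample, and NAPSA was at 0 in all 6.

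Lung p5 and lung p6 stood apart from lung p4. Between lung p5 and lung p6, 4.0% of the tested genes differed by more than 2-fold, against 17.8% between lung p4 and lung p5 and 14.4% between lung p4 and lung p6. For the 3 pairs of livers this share was 9.0% to 17.1%. Lung p5 differed by more than 2-fold from liver p5 in 13% of the genes, fewer than it differed in from lung p4. The number of counted reads cannot be recovered from TPM, so the likeness of lung p5 and lung p6 could not be tested against sampling noise.

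Liver transcripts were the most visible part of this likeness. The 74 genes with at least 20 normalised TPM in every liver and a lung p4 value under 2% of the lowest liver, a set chosen after the values were seen and given only as a description, include APOA2, FGB, AHSG, CPQ and AGXT. In lung p5 these genes stood at a median of 19.7% of their value in liver p5, with a standard deviation (SD) of the log2 ratio of only 0.30 over the 74 genes. Against liver p4 and liver p6 the same ratio had SDs of 1.15 and 1.09. In lung p6 the genes stood at a median of 15.0% of liver p5 with an SD of 0.30, but at 14.7% of liver p6, the liver with its own label, with an SD of 1.06. Lung p6 relative to lung p5 had a median of 74.0% and an SD of 0.15. The liver transcripts in both lungs therefore followed the proportions of liver p5, and those in the library labelled lung p6 did not follow liver p6.

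**Figure D1:**
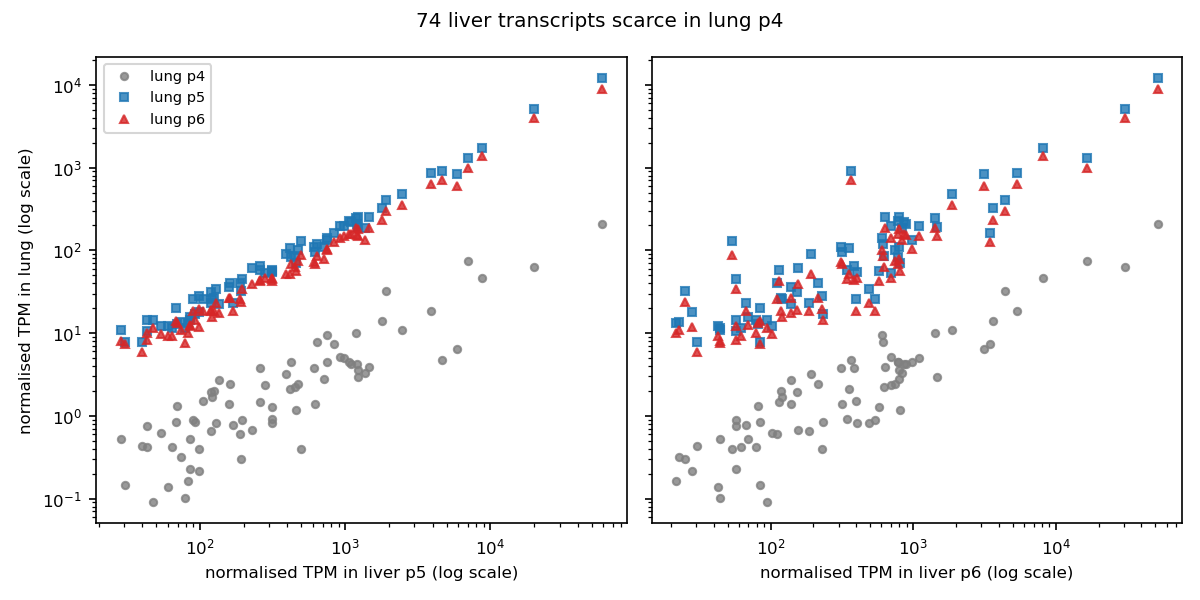
Normalised TPM of 74 liver transcripts in the lung samples (vertical axis, log scale) against liver p5 (left) and liver p6 (right, both log scales), 1 point per gene and lung sample. Lung p5 and lung p6 fall on narrow bands against liver p5, with an SD of the log2 ratio of 0.30 each, and scatter against liver p6, with SDs of 1.09 and 1.06. The low position of lung p4 in both panels was set by the choice of genes.

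Genes far higher in 1 liver than in the others were also followed into the lungs. With at least 20 normalised TPM in that liver, at least 8 times both other livers and a lung p4 value under 2% of it, 18 genes belonged to liver p5, 1 to liver p4 and 2 to liver p6. ENDOD1, an endonuclease gene, stood at 0.992, 397 and 0.8702 in the livers and at 0.413, 94.7 and 68.4 in the lungs. NCAN, named after a brain proteoglycan, stood at 292, 4640 and 369 in the livers and 4.71, 906 and 716 in the lungs. ADH7, an alcohol dehydrogenase, stood at 38.04, 499.5 and 53.9 in liver and 0.391, 129.9 and 87.4 in lung. The rule fixed the livers and lung p4, and only lungs p5 and p6 were free of it. Over the 18 genes of liver p5, lungs p5 and p6 held medians of 34.8% and 23.0% of the liver p5 value. Of the 2 genes of liver p6, TNNT1, a slow muscle troponin, stood at 5.29, 1.62 and 113 in the livers and 1.26, 3.38 and 60.4 in the lungs. Lung p6 thus shared TNNT1 with liver p6 and lung p5 did not. The other gene, without a symbol, stood at 15.26, 9.352 and 131.8 in the livers and 0.6048, 20.84 and 34.59 in the lungs. There lung p5 also lay well above lung p4. Lung transcripts were also present in liver p5. The 4 genes with at least 20 normalised TPM in every lung and under 5% of the lowest lung in both other livers were SLC34A2, SFTPB, SLCO2A1 and GPRC5A, and liver p5, on which the rule set no limit, held a median of 17.1% of their lung p5 value. The low values in liver p4 and liver p6 were set by the rule, which therefore could not show lung transcripts in those livers.

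Transcripts that set animal p5 apart in other organs placed lung p6 between the animals. A gut sample was available from p4 and from p5, and 10 transcripts had at least 5 TPM in both gut p5 and liver p5 and at least 6 times the highest of 10 samples, which were all samples other than these and lungs p5 and p6. PIAS2, an E3 SUMO ligase, stood at 281 TPM in gut p5 and 99.2 in liver p5, at most 1.83 in the 10 samples, and at 70.5 in lung p5 and 45.6 in lung p6. DSE, an epimerase of dermatan sulfate, stood at 162 and 72.4 TPM in gut p5 and liver p5, at most 3.85 in the 10 samples, and at 94.97 and 64.6 in lungs p5 and p6. PIAS2, DSE and others of the 10 were also among the 18 genes of liver p5, so the sets are not independent. All 10 transcripts lay above each of the 10 samples in both lung p5 and lung p6, at medians of 70.2% and 43.0% of the liver p5 value, and lung p6 lay under lung p5 in all 10. The opposite rule, at least 5 TPM in all 10 samples and no more than the lowest of them divided by 6 in gut p5 and liver p5, found 16 transcripts. DNAH1, an axonemal dynein, stood at 0.981 and 1.21 TPM in gut p5 and liver p5, at 39.7 to 148 in the 10 samples, at 1.06 in lung p5 and at 18.7 in lung p6. Relative to lung p4, the 16 transcripts had a median of 5.6% in lung p5 and of 41.8% in lung p6. Lung p6 exceeded lung p5, gut p5 and liver p5 in all 16 and lay between lung p5 and lung p4 in 15. FAM131C was the exception with 42.3 TPM in lung p6 against 15.4 in lung p4. The library labelled lung p6 thus carried transcripts that mark animal p5, together with transcripts that animal p5 nearly lacks. No gene met the corresponding rule for p6 over its brain, heart, skin and liver samples, or for p4. The rule for p6 spans more organs than that for p5, so its empty result does not show that p6 lacks such transcripts. The rule for p6 also includes a heart sample whose animal is in doubt. The sources differ on whether the gut sample titled p5 and the heart sample titled p6, which is among the 10 samples, came from p5 or p6. The titles were followed here, and the name animal p5 rests on them. Where these transcripts came from was not tested. In the paired comparison of all 6 samples, every p-value counts lung p5 and lung p6 as separate samples.

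**Figure D2:**
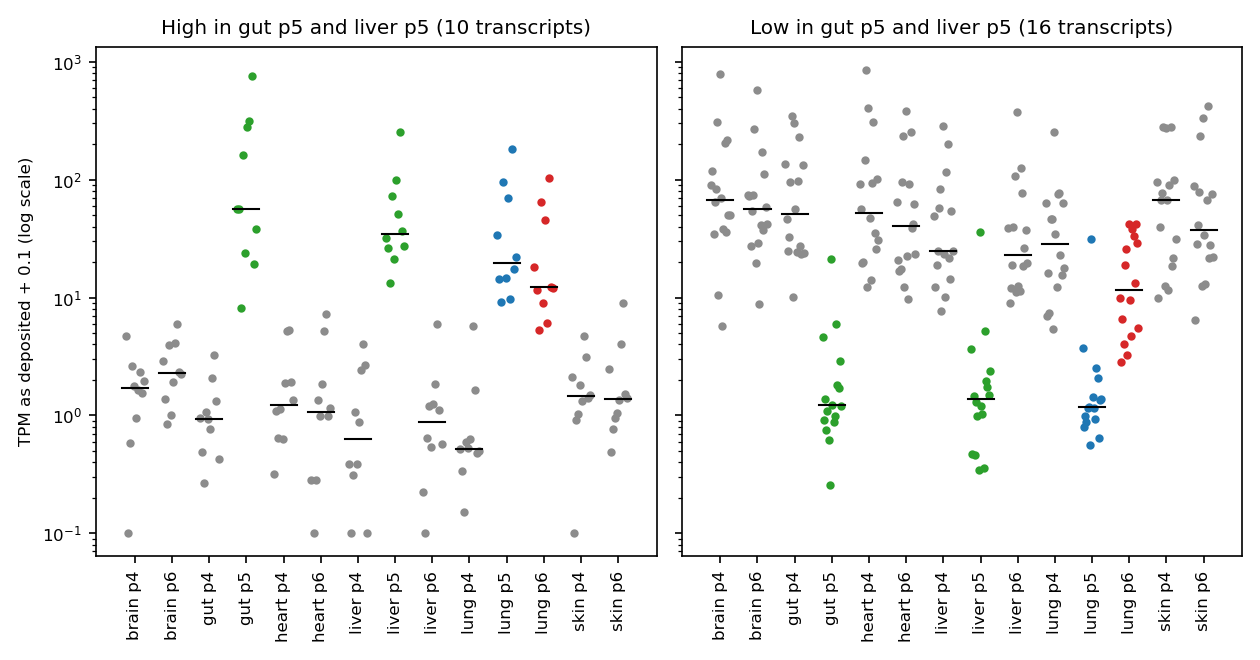
TPM as deposited plus 0.1 (vertical axis, log scale) of the 10 transcripts high (left) and the 16 transcripts low (right) in gut p5 and liver p5, in all 14 samples of the series. Points are transcripts and black lines are medians, and lung p6 (red) lies near lung p5 (blue) on the left and between lung p5 and the other samples on the right.

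Across all genes, 283 of 12187 tested genes (2.32%) were higher in lung and 353 (2.90%) were higher in liver. The test was limma on log2(normalised TPM + 1) with the animal as a block, and a gene was called at a Benjamini-Hochberg adjusted p under 0.05 and a more than 2-fold difference. The lowest adjusted p was 0.021. In 1654 genes (13.6%) all 3 lung values lay above all 3 liver values, and in 1826 genes (15.0%) the reverse held. Of the called genes, 271 and 343 did not overlap between the organs. Lung p4 was the lowest lung for 266 of the 353 genes called higher in liver, and liver p5 the highest liver for 182 of the 283 genes called higher in lung. Calls depended on single samples. With organ alone in the model, none passed without lung p6 (lowest adjusted p = 0.0889), without liver p4 (0.0829) or without liver p6 (0.0646), although 509, 554 and 434 genes higher in lung and 783, 722 and 823 higher in liver were past 2-fold at an unadjusted p under 0.05. Without lung p5, 72 and 93 passed. Averaging lung p5 and lung p6 into 1 sample left none either, with 584 and 801 at an unadjusted p under 0.05. Without the pair p6 none passed, with 489 and 951 unadjusted, and without the pair p5 95 and 84 passed. Other samples mattered less, with 305 and 325 without the pair p4, 236 and 270 without lung p4, and 315 and 444 without liver p5. The sizes changed less than the calls. Without lung p6, no called gene changed direction, and 280 of the 283 and 351 of the 353 still differed by more than 2-fold. With TPM as deposited, where the globin HBE1 takes 41.4 to 53.4% of all lung TPM, the median difference of all genes moved from -0.015 to -0.224 and the calls moved to 223 higher in lung and 663 higher in liver, 25.2% of calls higher in lung against 44.5% on normalised TPM.

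**Figure D3:**
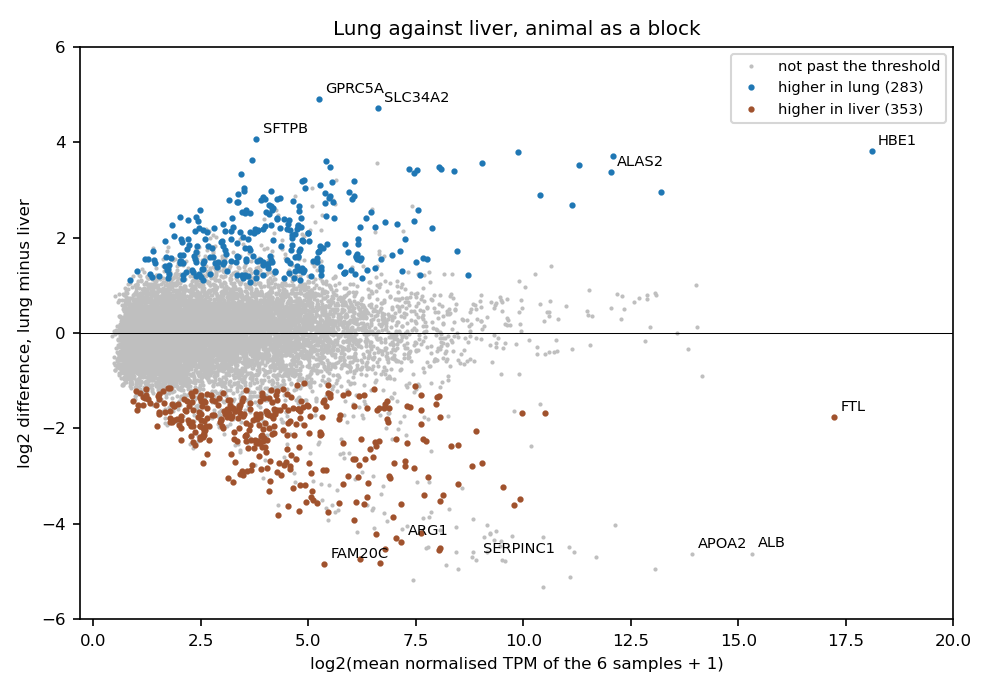
Log2 difference of lung minus liver (vertical axis) against log2 of the mean normalised TPM of the 6 samples plus 1 (horizontal axis) for the 12187 genes tested. Blue points are the 283 genes called higher in lung and brown points the 353 called higher in liver, while plasma protein genes such as ALB and APOA2 lie low at the right and are grey.

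Lung p4 alone was also set against the 3 livers. It was picked because it held the fewest liver transcripts, so that its counts and differences for genes higher in liver describe that library and give no independent support. The spread came from the livers, lung p4 being assumed to vary like them, and 75 genes (0.615%) were higher in lung p4 and 194 (1.59%) higher in liver (limma, adjusted p under 0.05 and over 2-fold). This comparison reuses the livers and lung p4, so that its values stand beside those of the paired comparison and add no independent evidence to them. None passed without liver p4, with 549 and 679 genes at an unadjusted p of 0.05, and 3 and 63 passed without liver p6. Without liver p5 both counts rose.

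**Figure D4:**
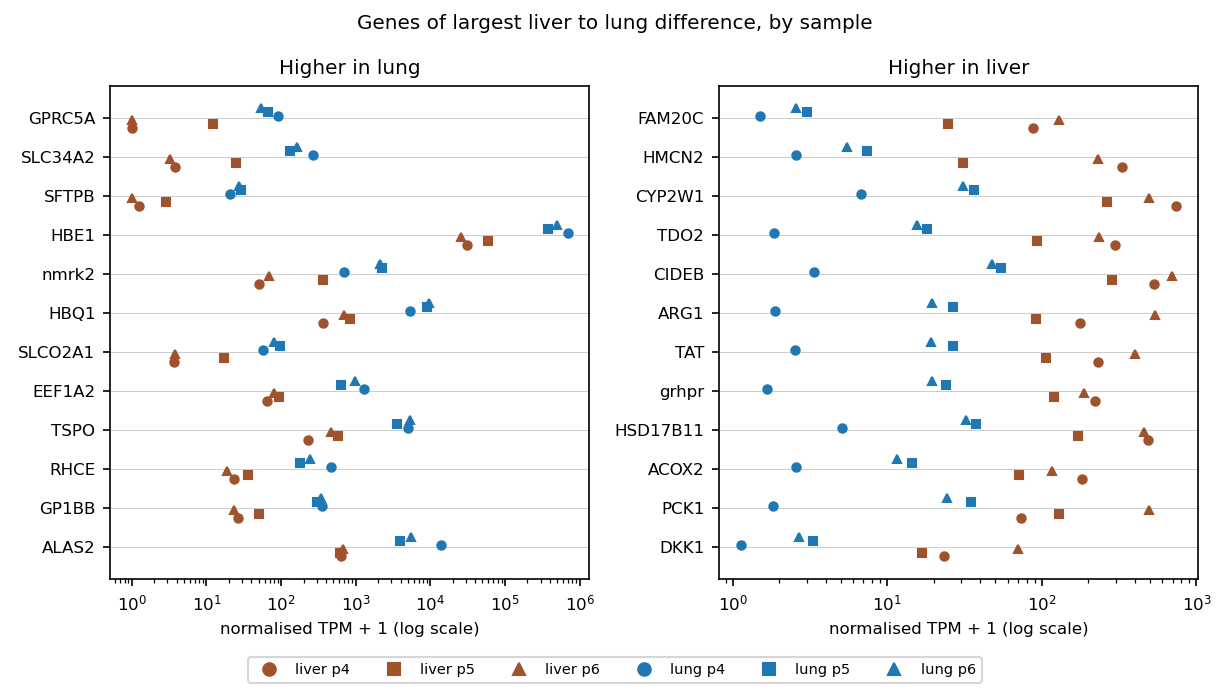
Normalised TPM plus 1 (horizontal axis, log scale) of the 12 genes of largest difference in each direction among those called and not overlapping. Colour gives the organ and shape the animal, and lung p4 is the lowest sample of every gene in the right panel, while liver p5 is the highest liver of most genes in the left panel.

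Among the called genes with a symbol and no overlap, the largest excess in lung was in GPRC5A, SLC34A2 and SFTPB. All were on the list of lung epithelium markers. GPRC5A, an orphan receptor strongly expressed in mammalian lung epithelium, stood at 0, 11.2 and 0 normalised TPM in the livers and 89.8, 65.5 and 53.6 in the lungs (log2 difference 4.91 ± 0.75, standard error, SE, adjusted p = 0.0276). SLC34A2, the phosphate transporter of mammalian alveolar cells, stood at 2.79, 23.98 and 2.25 in the livers and 264, 129.9 and 160.0 in the lungs (4.71 ± 0.70, adjusted p = 0.0268). SFTPB, whose values are given with the markers, differed by 4.06 ± 0.33 (adjusted p = 0.021). Every lung lay above every liver for these genes, and liver p5 was the liver that held most of each. In bulk samples, fewer cells of a type and less RNA per cell cannot be told apart, here and in what follows. CAV1, the caveolin of flat epithelial and endothelial cells, stood at 97.1, 72.9 and 22.7 in the livers and 301, 302 and 246 in the lungs. Thus 4 of the 5 lung epithelium genes tested were higher in lung, against 2.32% of all tested genes. Their log2 differences were 2.35 to 4.91, and the median of the group was 4.06. PDPN, a marker of flat alveolar cells in mammals, was the exception with 1.12, 10.9 and 0.985 in the livers and 0.2404, 9.36 and 9.38 in the lungs, where lung p4 was the lowest of all 6 samples. Without lung p6 the differences of GPRC5A, SLC34A2 and SFTPB were 5.08, 4.78 and 4.01. In lung p4 alone none of the epithelium genes passed, with a median of 3.77, and GPRC5A was at 0 in liver p4 and liver p6.

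Transcription factors of lung development followed in part. Of 7 tested, NKX2-1 (2.44 ± 0.29, adjusted p = 0.0214), FOXF1 and HOXA5 were higher in lung and none was higher in liver. The shares over all tested genes were 2.32% and 2.90%. FOXF1, a factor of the mesenchyme around the lung and gut, stood at 13.3, 8.68 and 3.94 in the livers and 35.6, 30.6 and 24.8 in the lungs. HOXA5, of the same mesenchyme, stood at 1.25, 1.31 and 0.603 in liver and 7.16, 4.71 and 4.31 in lung. The organs did not overlap in either gene. FOXP1, expressed in many tissues, stood at 23.6, 24.4 and 10.7 in liver and 21.3, 20.5 and 20.1 in lung, with overlap. ELF3, an epithelial factor, stood at 16.6, 7.81 and 7.403 in liver and 1.34, 3.14 and 2.59 in lung and did not pass (adjusted p = 0.062).

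In each group of cilia, mucus, junction and ion transport genes, at most 1 gene was called. Over all tested genes, 2.32% were called higher in lung and 2.90% higher in liver, so these counts describe single genes. Of 10 motile cilium genes tested, 1 was higher in lung, TPPP3, a tubulin-binding protein of ciliated cells, at 3.51, 4.11 and 1.17 in the livers and 27.2, 27.2 and 22.7 in the lungs (2.86 ± 0.28, adjusted p = 0.021), and the median of the group was -0.14. None of 10 mucus genes passed. AGR2, a chaperone of mucin folding, came nearest with 67.2, 43.6 and 24.0 in the livers and 137, 341 and 407 in the lungs without overlap (adjusted p = 0.0505), where lung p4 was the lowest lung. MUC5B, a gel-forming mucin, stood at 19.9, 16.9 and 14.4 in the livers and 23.2, 22.5 and 20.6 in the lungs. Among 14 genes of junctions and keratins, KRT5, a keratin of basal epithelial cells, was higher in lung at 5.71, 5.46 and 1.61 in liver and 19.1, 42.4 and 28.8 in lung (adjusted p = 0.0261), and the group had a median of -0.19. Of 6 genes of ion and water transport, 1 passed, SLC9A3, a sodium-proton exchanger, higher in liver at 4.79, 2.501 and 10.1 in liver against 0.512, 0.767 and 1.86 in lung. Among 5 mesothelium genes, UPK1B, a uroplakin, was higher in lung at 1.97, 1.88 and 0.905 in liver against 16.6, 17.7 and 22.96 in lung (adjusted p = 0.021), also in lung p4 alone (adjusted p = 0.0406).

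Of 7 listed red blood cell genes tested, 3 were higher in lung, against 2.32% of all tested genes. HBE1 alone made up much of the deposited TPM of lung. HBE1, a beta-type globin by its orthologue, held 53.4%, 41.4% and 44.7% of all deposited TPM in lungs p4, p5 and p6, against 3.45%, 6.71% and 2.86% in the livers. On normalised TPM its log2 difference was 3.81 ± 0.43 (adjusted p = 0.021), and 4.25 ± 0.47 in lung p4 alone (adjusted p = 0.013). HBQ1, an alpha-type globin, stood at 359.5, 830.1 and 688 in the livers and 5359, 8903 and 9736 in the lungs (3.71 ± 0.24). ALAS2, which starts heme synthesis in red cell precursors, stood at 630.1, 612 and 682 in liver and 13714, 3918 and 5479 in lung, the livers lying close together and lung p4 highest by far. TFR2, a transferrin receptor of liver and red cell precursors in mammals, stood at 456, 803 and 492 in liver and 5809, 2363 and 3483 in lung. RHCE, an Rh protein of the red cell membrane, stood at 22.6, 34.6 and 17.8 in liver and 469.6, 178 and 241 in lung. The gene klf17, of the Krüppel-like factors, stood at 30.9, 42.6 and 15.4 in liver and 516, 235 and 201 in lung. Every lung exceeded every liver in each of these genes. HBQ1, RHCE and klf17 are not on the list and were named for their large differences. The 3 listed genes that passed were HBE1, ALAS2 and TFR2, in the paired comparison and in lung p4 alone, and the median of the group was 1.72. The summed level of the listed genes was 709920, 385722 and 509942 normalised TPM in lungs p4, p5 and p6 and 27324 to 60387 in the livers, with lung p4 highest. The other 4, FECH, EPB41, GFI1B and CA2, were not called, with log2 differences of -0.15 to 1.72. FECH, the last enzyme of heme synthesis, overlapped between the organs at 6.24, 8.05 and 4.64 in liver and 13.6, 5.04 and 5.79 in lung, and GATA1 stayed under 1 in every sample.

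Thrombocyte genes were higher in lung in 3 of 5 cases, against 2.32% of all tested genes. GP1BB, part of the receptor for von Willebrand factor, stood at 25.3, 48.9 and 22.5 in the livers and 357, 303 and 339 in the lungs (3.41 ± 0.31, adjusted p = 0.021). GP9, of the same receptor, stood at 2.47, 2.24 and 2.43 in liver and 56.9, 13.3 and 21.7 in lung. ITGA2B, the integrin that binds fibrinogen, stood at 15.6, 10.7 and 9.22 in liver and 62.5, 27.7 and 30.2 in lung. Lung p4 was the highest sample for all of them. The group median was 1.62 in the paired comparison and 2.34 in lung p4 alone. ITGB3, the partner of ITGA2B, was not called, with 3.03, 2.36 and 2.42 in the livers and 1.33, 1.54 and 1.204 in the lungs.

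Further genes near the top of the lung list have roles outside these groups. The kinase gene nmrk2, of NAD synthesis from nicotinamide riboside, stood at 50.2, 369 and 67.4 in the livers and 701, 2270 and 2141 in the lungs (3.79 ± 0.44, adjusted p = 0.021), with liver p5 nearest to the lungs. SLCO2A1, a prostaglandin transporter, stood at 2.72, 16.1 and 2.797 in liver and 56.8, 94.4 and 78.2 in lung. EEF1A2, a translation elongation factor of muscle and nerve in mammals, stood at 63.9, 92.7 and 78.7 in liver and 1310, 640.5 and 975 in lung. TSPO, a cholesterol-binding protein of the outer mitochondrial membrane, stood at 229.8, 575 and 464 in liver and 4952, 3544 and 5266 in lung. SLC2A2, the glucose transporter that defines liver and pancreatic islets in mammals, was higher in lung, at 29.1, 41.2 and 27.1 in the livers and 185, 126 and 150.1 in the lungs (2.21 ± 0.28, adjusted p = 0.0231). The organs did not overlap in any of these 5 genes. Their levels were not tested against those of the red blood cell genes HBE1, ALAS2 and TFR2, which were also higher in lung.

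Some genes of smooth muscle and matrix were higher in lung. Over all tested genes, 2.32% were called higher in lung and 2.90% higher in liver. SYNM, an intermediate filament protein of smooth muscle, stood at 7.86, 28.1 and 7.48 in the livers and 106, 126 and 121 in the lungs (3.19 ± 0.37, adjusted p = 0.021). MYLK, the kinase that starts smooth muscle contraction, stood at 12.4, 11.8 and 6.09 in liver and 26.4, 25.4 and 24.1 in lung. These were 2 of 6 smooth muscle genes tested, with a group median of 0.91. Of 16 matrix genes, LUM and DPT, small proteins that order collagen fibrils, COL1A2, a chain of fibrillar collagen, and LAMA4, a laminin of vessel walls, were higher in lung, and FN1, fibronectin, was higher in liver. LUM stood at 7.16, 3.87 and 1.22 in the livers and 59.4, 22.6 and 21.7 in the lungs. COL1A2 stood at 52.2, 32.6 and 10.7 in liver and 112, 115 and 97.9 in lung, so that the livers did not reach the lungs in either gene. FN1, which the liver also secretes into plasma, stood at 940.2, 332 and 542 in liver and 122, 114 and 89.0 in lung (-2.36 ± 0.32). SPARC and BGN, further abundant matrix genes, overlapped between the organs.

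Of 15 endothelial genes tested, 1 was called in each direction, against 2.32% of all tested genes higher in lung and 2.90% higher in liver. The group median was 0.12. APLNR, the apelin receptor of vessels, was higher in lung at 3.56, 7.93 and 1.93 in liver against 28.9, 22.5 and 13.6 in lung (adjusted p = 0.0253). STAB2, the scavenger receptor of liver sinusoids, was higher in liver at 25.7, 20.01 and 21.8 in liver against 2.54, 4.68 and 4.64 in lung (adjusted p = 0.0231), also against lung p4 alone. CALCRL and CLDN5, expressed in endothelium generally, did not pass. In the group of oxygen sensing and vessel growth, 1 of 10 genes passed, PFKFB4, which promotes glycolysis and is induced by low oxygen in mammals, at 8.93, 12.8 and 9.01 in the livers and 132, 40.9 and 73.6 in the lungs. The gene named hif-1, described in the table as an endothelial PAS domain gene, stood at 14.2, 13.9 and 10.4 in liver and 216, 51.8 and 90.1 in lung (2.88 ± 0.40, adjusted p = 0.0247). The genes named HIF1A and EPAS1 overlapped between the organs. Lung p4 was the highest sample for PFKFB4 and hif-1, as it was for HBE1 and ALAS2, and how much of either came from blood was not tested.

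Of 20 enzymes of the urea cycle and amino acid breakdown tested, 8 were higher in liver and none in lung, against 2.90% and 2.32% of all tested genes. The group median was -3.12, against -0.015 over all genes. TDO2, which opens tryptophan, stood at 295, 91.9 and 232 normalised TPM in the livers and 0.846, 17.02 and 14.5 in the lungs (-4.53 ± 0.86, adjusted p = 0.0426). ARG1, the arginase of the urea cycle, stood at 176, 90.1 and 542 in liver and 0.879, 25.8 and 18.5 in lung (-4.38 ± 0.83, adjusted p = 0.0423). TAT, which starts tyrosine breakdown, stood at 231, 106 and 400.0 in liver and 1.52, 25.6 and 18.3 in lung. All livers exceeded all lungs, liver p5 was the lowest liver and lung p4 held next to none. OTC, of the urea cycle, stood at 795, 423 and 694 in liver and 27.5, 113 and 96.6 in lung. FAH, the last step of tyrosine breakdown, stood at 542, 108 and 488 in liver and 21.9, 34.2 and 29.1 in lung. MAT1A, the methionine adenosyltransferase of liver, stood at 147, 135 and 139 in liver and 2.68, 22.7 and 17.7 in lung. These genes did not overlap between the organs either, and lung p4 was again the lowest lung in each. ASL, of the urea cycle, and DMGDH, of choline breakdown, completed the 8. UROC1 and AGXT, of histidine and glyoxylate breakdown, missed the threshold in the paired comparison (adjusted p = 0.0591 and 0.059) and were called in lung p4 alone, where AGXT differed by -7.72 ± 0.39. In lung p4 alone, the library picked for its few liver transcripts, the group median was -3.93. CTH and SDS, of cysteine and serine metabolism, overlapped between the organs.

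As a group, plasma protein genes differed more in lung p4 alone than in the paired comparison. Lung p4 was picked because it held the fewest liver transcripts, so this gives no independent support. In the paired comparison, 2.90% of all tested genes were higher in liver. Of 14 tested, serpina1, an inhibitor of neutrophil elastase, was called in the paired comparison, at 30.3, 19.7 and 48.8 in the livers and 0.907, 5.91 and 4.76 in the lungs (adjusted p = 0.0303), and the other 13 had adjusted p of 0.0563 to 0.116, although the group median was -4.41. In lung p4 alone the group median was -7.63. ALB, whose values are given with the markers, differed by -4.62 ± 1.29 in the paired comparison (adjusted p = 0.0945) and by -8.38 ± 0.47 in lung p4 alone. KNG1, the precursor of kinins, stood at 8876, 3906 and 5397 in liver and 18.4, 853 and 637 in lung. SERPINC1, antithrombin, stood at 1174, 714 and 794 in liver and 2.796, 111 and 78.9 in lung. ITIH2, a hyaluronan-binding plasma protein, stood at 7088, 1802 and 3649 in liver and 13.9, 325 and 233 in lung. The livers and the lungs did not overlap in any of these, and the large SE of the paired differences goes with the distance between lung p4 and the other lungs. TF, transferrin, was unlike the rest, at 31146, 18025 and 21656 in the livers and 17437, 10011 and 10797 in the lungs, with lung p4 the highest lung, and neither comparison called it. HPX, the heme carrier of plasma, stood at 173, 131 and 359 in liver and 18.7, 112 and 96.97 in lung, with all lungs under all livers. Of 5 genes of lipid export none was called in the paired comparison. APOA2, an apolipoprotein of high-density lipoprotein, stood at 33148, 20142 and 30465 in liver and 63.5, 5135 and 4024 in lung, and it was among the 3 that were higher in liver than in lung p4, with APOB and APOM. SERPINA12, an adipokine-type serpin by name and among the 10 most abundant genes of liver, stood at 25384, 7000 and 16535 in liver and 75.5, 1302 and 1004 in lung.

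Some clotting and complement genes were higher in liver in the paired comparison, the direction called for 2.90% of all tested genes. Of 13 coagulation genes, HGFAC, F5 and PROC were higher in liver in the paired comparison, with log2 differences of -1.76 to -1.55. The largest differences in lung p4 alone were in other genes, with -7.38 to -4.57 for FGA, FGB, PLG, F10 and F2. FGA, a fibrinogen chain, stood at 6876, 1920 and 4394 in the livers and 32.7, 402 and 301 in the lungs (paired adjusted p = 0.0507). F5, clotting factor V, stood at 50.6, 28.1 and 49.8 in liver and 13.5, 12.7 and 14.2 in lung, nearly the same in the 3 lungs, unlike FGA. Of 12 complement genes, 6 were higher in liver, among them CFI, C2, C8A and C8B, with a group median of -3.10. Another of the 6, C1QA, is also on the list of myeloid genes. C8B, of the membrane attack complex, stood at 50.4, 64.2 and 49.6 in liver and 5.23, 8.63 and 8.74 in lung (-2.73 ± 0.24, adjusted p = 0.021), with the 3 lungs close together. C3, the central component, was called in lung p4 alone, at 939, 615 and 314 in liver and 3.73, 109 and 71.9 in lung. In lung p4 alone, the library picked for its few liver transcripts, the median of the complement genes was -4.49.

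Most tested genes of bile acid, drug, fat and glucose metabolism were not called, and those called were mostly higher in liver. Over all tested genes, 2.90% were called higher in liver and 2.32% higher in lung. Of 10 bile acid genes, ABCB11, the bile salt export pump, SLCO1B3, an uptake transporter, HSD3B7, of bile acid synthesis, and ABCG5, of sterol export, were higher in liver, and ABCB11 stood at 319, 252 and 202 in the livers and 5.61, 44.3 and 31.3 in the lungs (-3.58 ± 0.62, adjusted p = 0.0354). CYP7A1, the rate-limiting enzyme of bile acid synthesis in mammals, did not pass the filter, with at most 1.37 in any sample. Of 12 detoxifying enzymes, POR, the electron donor of cytochromes P450, CYP3A4, EPHX1, FMO5 and SULT1B1 were higher in liver, and POR stood at 262, 502 and 216 in liver and 24.04, 122 and 92.3 in lung. CYP2W1, a cytochrome P450 outside that list, stood at 739.7, 264 and 494 in liver and 5.71, 35.6 and 29.97 in lung (-4.55 ± 0.70, adjusted p = 0.0282). Of 11 genes of fatty acid oxidation, 3 were higher in liver, among them ACOX2, a peroxisomal oxidase, and ACADM, of mitochondria. ACOX2, which acts on bile acid precursors, stood at 182, 69.6 and 116 in liver and 1.57, 13.5 and 10.5 in lung. ACADM stood at 407, 264 and 229 in liver and 82.6, 101 and 99.8 in lung. Lung p4 was far under the other lungs for ACOX2 and close to them for ACADM. CPT1A stayed under 1 in every sample. Of 10 genes of gluconeogenesis and glycogen, PCK1, the rate-limiting enzyme of gluconeogenesis, and PYGL, liver glycogen phosphorylase, were higher in liver, and SLC2A2, described above, in lung. PCK1 stood at 72.3, 128 and 491 in liver and 0.824, 33.8 and 23.3 in lung, with liver p6 far above the other livers. PYGL stood at 193, 147 and 144 in liver and 39.4, 64.4 and 58.4 in lung.

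Further genes with a large excess in liver lay outside the lists. FAM20C, a Golgi kinase of secreted proteins, stood at 86.8, 23.5 and 128 in the livers and 0.507, 2.01 and 1.58 in the lungs (-4.85 ± 0.56, adjusted p = 0.021). HMCN2, a matrix protein of the hemicentin family, stood at 327, 29.7 and 231 in liver and 1.56, 6.41 and 4.50 in lung. Both had liver p5 as the lowest liver and little in any lung. CIDEB, which loads lipid onto lipoproteins, stood at 527, 282 and 694 in liver and 2.37, 53.03 and 46.7 in lung. The gene grhpr, the glyoxylate reductase of liver, stood at 219, 119 and 187 in liver and 0.654, 22.8 and 18.6 in lung. HSD17B11, a lipid droplet enzyme, stood at 486, 169 and 454 in liver and 4.06, 36.3 and 31.2 in lung. These had lung p4 far under the other lungs. DKK1, a secreted Wnt inhibitor, stood at 22.3, 15.8 and 69.2 in liver and 0.122, 2.29 and 1.67 in lung. No lung reached any liver in these 6 genes, and liver p5 was the lowest liver in each.

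Of 11 iron, copper and heme genes, 1 was higher in liver and 2 in lung, against 2.90% and 2.32% of all tested genes. FTL, a ferritin chain and the most abundant named transcript of liver, held 19.4%, 28.8% and 32.1% of deposited TPM in the livers and 4.67%, 7.53% and 6.90% in the lungs. On normalised TPM it was higher in liver, with a log2 difference of -1.77 ± 0.29 (adjusted p = 0.0319), and the 3 lungs lay within 60298 to 77391, so that lung p4 held nearly as much as the other lungs, unlike for ALB. ALAS2 and TFR2 were higher in lung, and the other 8 did not pass. BLVRA, biliverdin reductase, stood at 2.43, 36.3 and 3.58 in the livers and 50.6, 49.2 and 55.7 in the lungs (adjusted p = 0.0789), with liver p5 near the lungs. The gene named hamp, hepcidin, the iron hormone of liver, stood at 8.21, 5.36 and 9.13 in liver and 3.14, 3.64 and 3.99 in lung (adjusted p = 0.0989).

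Of 6 transcription factors that define liver in mammals, 1 was called, where 2.90% of all tested genes were higher in liver. RXRA, the partner of bile acid and lipid receptors, was higher in liver at 24.6, 27.9 and 25.9 in the livers and 10.4, 10.7 and 10.8 in the lungs (-1.22 ± 0.21, adjusted p = 0.0377). The gene named hnf4a stood at 3.401, 4.26 and 1.99 in liver and 0.9097, 1.02 and 0.826 in lung without overlap (adjusted p = 0.0598). FOXA2, shared by liver and lung epithelium in mammals, overlapped at 25.8, 29.02 and 14.4 in liver and 11.1, 20.1 and 17.8 in lung. None of 5 bile duct genes passed. KRT19, a keratin of bile ducts and other simple epithelia, stood at 2332, 688 and 299.5 in the livers and 2106, 2221 and 1947 in the lungs, where liver p4 exceeded all 3 lungs.

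Some immune cell genes were higher in liver, the direction called for 2.90% of all tested genes. C1QA and CSF1R, of macrophages, were higher in liver among 10 myeloid genes, and CD2, CD247 and TRAC, of T cells, among 10 lymphocyte genes. CD2 stood at 133, 48.3 and 171 in the livers and 22.1, 12.1 and 14.2 in the lungs (-2.65 ± 0.34, adjusted p = 0.0233). CSF1R, the receptor for macrophage growth factor, stood at 29.4, 63.6 and 26.2 in liver and 6.71, 15.1 and 14.5 in lung. TRAC, the constant part of the T cell receptor alpha chain, overlapped, as lung p5 at 4.35 exceeded liver p4 at 3.39. MPEG1, of macrophages, was high in liver p5, lung p5 and lung p6, at 44.1, 77.1 and 15.1 in the livers and 22.2, 92.8 and 72.6 in the lungs. Of 4 pigment cell genes, GPR143 was higher in liver and PMEL in lung, the latter with overlapping values of 2.48, 0.737 and 3.03 in liver and 7.88, 2.98 and 18.4 in lung. GPR143, a receptor of pigment granules, stood at 12.7, 38.7 and 15.4 in liver and 0.768, 5.68 and 5.40 in lung.

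Some transcripts separated lung p5 and lung p6 from lung p4 without being liver transcripts. MYH1, a fast myosin of skeletal muscle, stood at 14.5, 2.96 and 13.1 in the livers and 20.6, 333 and 195 in the lungs. TNNI2, a fast muscle troponin, stood at 9.83, 13.6 and 7.31 in liver and 12.4, 112 and 75.5 in lung. CHGB, a granin of endocrine cells and nerves, stood at 3.96, 0.903 and 2.89 in liver and 0.457, 156 and 128 in lung. Lung p4 resembled the livers in these genes, and lung p6 lay below lung p5 in each. None of the 9 skeletal muscle, 5 cardiac muscle or 6 nerve and endocrine genes was called in the paired comparison. The summed level of the listed skeletal muscle genes was 42.3 in lung p4, 492.2 in lung p5 and 305.4 in lung p6, against 36.4 to 58.5 in the livers. PRSS3, a trypsin, stood at 0.199, 3.81 and 0 in liver and 0.213, 17.7 and 15.7 in lung in the same order of lungs, and of 6 pancreas genes 1, PLA2G1B, was called, higher in liver. Of 10 intestine genes, SI, sucrase-isomaltase, was called, higher in liver at 15.2, 11.9 and 12.3 in liver against 3.83, 3.15 and 2.39 in lung. Single calls in groups of this size carry little weight, as 2.90% of all tested genes were higher in liver.

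Lung p4 was the highest sample for some genes that the paired comparison did not call. TNNI3, the cardiac troponin I, stood at 5.897, 3.301 and 5.29 in the livers and 71.4, 4.73 and 9.14 in the lungs and was called in lung p4 alone (3.66 ± 0.45, adjusted p = 0.0185) and not in the paired comparison (adjusted p = 0.181). None of the 8 cell cycle genes tested passed in either comparison, though their medians were 0.89 and 2.02. TOP2A, the topoisomerase of dividing cells, stood at 5.13, 5.82 and 2.91 in the livers and 23.3, 2.78 and 3.55 in the lungs. KIF11, a mitotic kinesin, stood at 1.47, 2.83 and 1.72 in liver and 13.01, 3.499 and 4.15 in lung. Lung p4 was the highest sample for both, as it was for ALAS2 and GP9, and the summed level of the cell cycle genes was 153.4 in lung p4, 55.0 in lung p5 and 78.7 in lung p6. Among the genes called higher in lung p4 than in the livers, ALAS2 had a log2 difference of 4.42 ± 0.31 (adjusted p = 0.00329). RHCE had 4.23 ± 0.48, klf17 4.19 ± 0.60, GP9 4.10 ± 0.38, EEF1A2 4.06 ± 0.39 and hif-1 3.98 ± 0.40. Of these, ALAS2 is on the red blood cell list and GP9 on the thrombocyte list. The others are on no list and were named for their large differences. On the liver side APOA2 had -8.73 ± 0.38. GPNMB, a glycoprotein of lysosomes, stood at 2272, 5900 and 3133 in the livers and 6.37, 836 and 594 in the lungs. PRSS57, a serine protease, stood at 734, 459 and 806 in liver and 1.19, 71.3 and 56.98 in lung, and CYP2C18, a cytochrome P450, was called with them. In these genes lung p5 and lung p6 held far more than lung p4 and less than any liver.

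Ribosomal protein and complex I genes were compared as genes of general cell functions. Over all tested genes, 2.32% were called higher in lung and 2.90% higher in liver, so counts in such small groups carry little weight. None of 25 ribosomal protein genes passed in either comparison, with a median of 0.60 in both, and RPL5 stood at 5147, 7867 and 6048 in the livers and 10335, 9730 and 12723 in the lungs. Of 14 genes of mitochondrial complex I, 1 passed, NDUFS5, at 286, 129.9 and 309 in the livers and 135, 62.4 and 136 in the lungs (-1.10 ± 0.21, adjusted p = 0.0438). Each liver exceeded the lung with the same p number, although liver p5 lay under lung p4 and lung p6. The call rests on this pairing, which for lung p6 is known only from its title. Without the block by animal, the adjusted p of NDUFS5 was 0.207. The median of complex I was -0.12. Among the most abundant transcripts of both organs, EEF1A1, of translation, ranged from 14962 to 20683 normalised TPM over the 6 samples, and ACTG1, a cytoplasmic actin, from 9963 to 15472, with the organs overlapping in both. RPL21 and RPL11, of the ribosome, TPT1, a small abundant cytoplasmic protein, NME2, a nucleotide kinase, and HSP90AB1, a chaperone, were also among the 10 most abundant named genes of an organ.

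**Figure D5:**
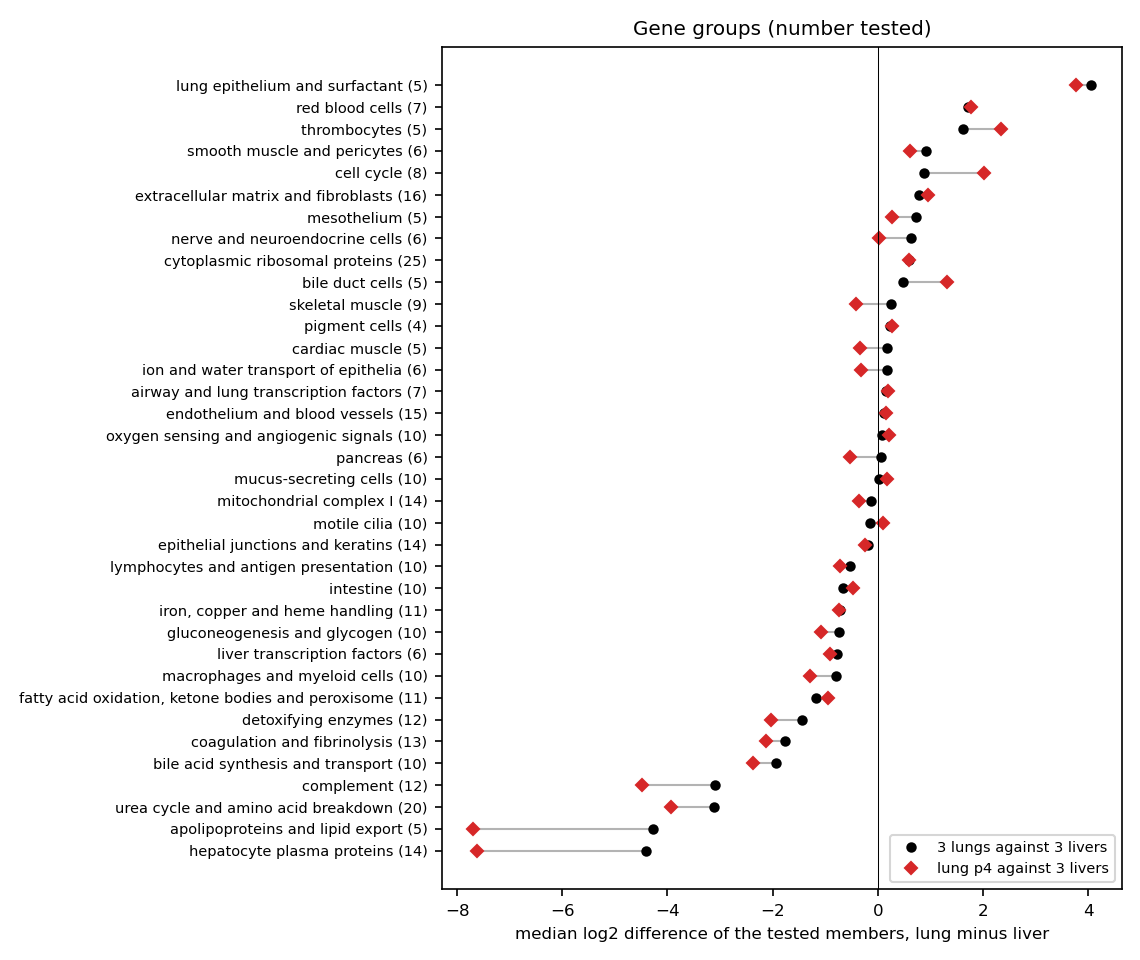
Median log2 difference of lung minus liver (horizontal axis) over the tested members of each of the 36 gene lists, with the number tested in brackets. Black circles are the paired comparison of 3 lungs with 3 livers and red diamonds lung p4 against the livers, and the distance between them is widest for apolipoproteins, at -4.28 and -7.70, and plasma proteins, at -4.41 and -7.63.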

How the data were processed

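Poly(A) RNA libraries, strand-specific and with molecular identifiers, had been sequenced from all organs in 1 run. The study's methods describe trimming with Cutadapt and Trimmomatic, alignment with BWA to 1 transcript per annotated gene, the longest, counting with featureCounts, and eggNOG names. How identifiers were used and how TPM were computed is not given in the sources used here. The TPM table was used as deposited by the authors. It keeps no read depth, so no count model or detection limit could be given, and reads of near-identical copies, such as globins, ferritins or ribosomal proteins, may be split between assembled genes. The 8 columns of other organs served only to describe animal p5 and for 1 scaling alternative.

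Values were scaled by median of ratios within the 6 samples. Genes that had 1 TPM or more in 2 or more samples entered limma 3.58.1 in R 4.3.3 on log2(value + 1), a scale that understates changes of low genes, with a variance trend, the animal as a block and Benjamini-Hochberg adjustment over 12187 genes. By the titles, each p-value rests on single organ samples of 3 animals. The library titled lung p6 carried transcripts that mark animal p5, and whether the lungs hold 3 separate animals was not tested. The p numbers in the titles pair the organs. The correlations of same-animal deviations from the organ means were 0.325, 0.436 and 0.009 for p4, p5 and p6, and liver p5 and lung p6 had 0.137. In simulated tables with 200 changed genes, 44% were recovered at a log2 change of 2 and 85.5% at 4. The simulated lungs varied independently of each other, and only more abundant genes were changed. In the data lung p5 and lung p6 stood close together, so these rates need not hold for these samples.

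Members, the 36 gene lists and the tests were chosen with earlier results of these data known. The genes named by rule were the 12 largest non-overlapping differences called in each direction, the 8 genes farthest from the nearest liver in lung p4 in each direction, the 10 with the largest excess of lungs p5 and p6 over lung p4 among liver genes, and the 10 most abundant per organ. Further genes came from the lists, and TNNT1 and the genes that mark animal p5 were chosen after their values were seen. Of assembled genes with 1 symbol, the most abundant stands for it. Alternatives were other pseudocounts, filters, scalings and variances, no block, and each sample or pair left out. Leaving out single livers or lungs in the paired comparison, and averaging lungs p5 and p6, was added after seeing the data. Python 3.11.15 with pandas 2.3.3 and matplotlib 3.10.9 made the summaries and figures.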

Additional observations from a re-analysis of the deposited data

How the results depend on the processing

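With limma on normalised TPM, 283 genes were higher in lung and 353 in liver. Without the replicate block the counts were 241 and 334. A pseudocount of 0.1 gave 195 and 193, no filter on low values 70 and 37 of 18336 genes, and TPM as deposited 223 and 663. Over the samples and pairs left out, the count ranged from 0 to 315 in lung and from 0 to 444 in liver, and lungs p5 and p6 averaged as 1 sample left 0 and 0, with 584 and 801 at an unadjusted p under 0.05. Other filters, scalings and variances stayed within 1.5 times. For lung p4 alone, with 75 and 194, a pseudocount of 5 gave 103 and 129, TPM as deposited 41 and 278, and the spread shared with a separate group of lungs p5 and p6 199 and 398. Leaving out a liver gave 0 to 258 and 0 to 433. The 38 named genes with a printed paired test kept their direction in each of 20 alternatives. Of them 28 were called, and all 28 calls were lost without lung p6, liver p4, liver p6 or the pair p6. The cause was not tested. The data hold 3 animals by title, no read depth, and 1 lung library labelled p6 with transcripts that mark animal p5. The calls therefore measure the spread of these samples alone.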
